A study of Mus musculus with 20 samples.

Results

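The IFITM genes encode short membrane proteins of the CD225 family. Their levels are described here for Ifitm1, Ifitm2 and Ifitm3, 3 of the 24391 genes counted in each library. These 3 genes were picked by symbol, because Ifitm2 was about 5-fold higher with 4-hydroxytamoxifen (4-OHT) in one of the lines. For them, the difference between 4-OHT and ethanol is therefore given as a description without a test, whereas the other comparisons took no part in the choice. IFITM proteins sit in the plasma membrane and in endosomes and lysosomes, where they hinder the fusion of enveloped viruses with the membrane of the cell. Interferons induce them through JAK kinases and the factors STAT2 and IRF9, and they are also expressed without interferon in T cells, germ cells and stem cells. Ifitm3 is best known for restricting influenza virus from endosomes, Ifitm1 and Ifitm2 are related antiviral proteins, and Ifitm5 acts in bone formation.

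The study asked how transcription in a mouse T cell hybridoma, E2-10HA, changes with an active Notch receptor or without the histone variant H2A.Z. CRISPR control samples carried the empty lentiCRISPRv2 plasmid (n = 6), and H2A.Z guide samples the same plasmid with guides against H2afv and H2afz (n = 6), both under puromycin selection. BioNICD samples carried pLXSP-BirA, which supplies the biotin ligase BirA of bacteria, and pMY-BioNICD-IRES-GFP, which supplies the Notch intracellular domain (NICD) with a biotin tag, wild type (n = 2) or DEP mutant (n = 2), selected by histidinol and sorting. NICD-ER samples carried pMIGRI Flag-NICD-ER IRES GFP, in which NICD is fused to the binding domain of the estrogen receptor, were sorted, and received ethanol (n = 2) or (Z)-4-hydroxytamoxifen (n = 2) for 24 hours. All 6 guide titles carry 1 number, so these samples are taken as 1 line, and separate cultures are not stated for the replicates of any group. The p-values thus rest on a spread between samples that may be technical. Replicates 1 and 2 of both CRISPR groups are called set 1 and replicates 3 to 6 set 2, because the labels give a treatment field only for the former. In 6 of the 8 CRISPR samples of set 2 the free-text description names another group than the title, and the plasmid field goes with the title.

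Libraries held 10704131 to 48238324 counts. In bulk RNA, fewer cells of a type and less RNA per cell cannot be told apart. Levels are in counts per 1000000 (CPM) scaled with TMM factors over the 20 libraries, as mean ± SD, and a gene was called at an edgeR adjusted p under 0.05. Both targeted genes were lower in every guide sample than in any control: H2afz stood at 5.20 ± 0.429 against 28.2 ± 2.52 CPM and H2afv at 36.1 ± 12.0 against 127.5 ± 11.8 CPM (SD, n = 6 each). The fall of H2afv was larger in set 2 (-2.08) than in set 1 (-1.46, adjusted p = 0.00374 for the difference, edgeR). The 10 T cell markers summed to 1369 to 2250 CPM in every library, but single markers changed. With the guides, 3 of 9 tested rose and 4 fell, beside 31.8% and 32.7% of all genes. Cd247 stood at 19.1 CPM with the guides against 0.0847 CPM in controls, and Lck at 63.3 against 176.6 CPM. Some genes that mark other cells were high in wild-type BioNICD: Blk reached 239.9 CPM, Pdgfrb 114.7 CPM and Itgam 62.0 CPM, while Ms4a1, S100a8, S100a9, Col1a2, Col3a1 and Lum were at 0 there. The first replicates of both CRISPR groups stood apart: 5 fibroblast markers (Col1a1, Col1a2, Col3a1, Dcn and Lum) summed to 34.3 CPM in control replicate 1 and 41.8 CPM in guide replicate 1. In the other 18 libraries these markers summed to at most 0.285 CPM. Ifitm3 values that rest on these 2 libraries are given with and without them below.

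The 3 genes lie together on chromosome 7 (mm9), with Ifitm5 and Ifitm6 beside them. Ifitm2 spans 148140738 to 148141860 on the minus strand in 2 exons with 627 exonic bases. Ifitm1 spans 148153328 to 148155726 on the plus strand in 3 exon blocks with 840 exonic bases, and its start is 11.5 kb from that of Ifitm2. Ifitm3 spans 148195489 to 148196643 on the minus strand in 2 exons with 648 exonic bases, and its start is 54.8 kb from that of Ifitm2. Of the 606 stretches of 50 bases in the Ifitm2 transcripts, 20 (3.3%) also occur in Ifitm3, and Ifitm1 shares 15 with Ifitm3. A read that lies wholly in such a stretch cannot be assigned to 1 gene. Small Ifitm3 counts beside a large Ifitm2 count carry this uncertainty, whereas Ifitm1 and Ifitm2 share no stretch of 50 bases.

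Since the 3 genes moved together in the NICD lines, their upstream sequences were read for short motifs, of which 2 are given here. RefSeq promoter windows (GRCm38.p6, 250 bases before to 50 after the transcript start) were found for all 3. On both strands they were searched for a GAAA repeat, meaning GAAA, 2 bases of any kind and GAAA again, as in elements bound by interferon regulatory factors. The same was done for TGGGAA, the core of sites bound by RBPJ, the DNA-binding partner of NICD. Capitals mark a match to the first motif in Ifitm2 and Ifitm3, and to the second, read on the other strand, in Ifitm1. The 4 stretches are shown because they hold these matches, or, in Ifitm3, the bases at the place where Ifitm2 has one.
Ifitm1, chr7:140967876-140968025, plus strand, 200 to 51 bases before the start: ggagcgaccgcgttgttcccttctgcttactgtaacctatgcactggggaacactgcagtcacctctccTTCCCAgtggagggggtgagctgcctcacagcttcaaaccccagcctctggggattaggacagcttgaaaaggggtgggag
Ifitm2, chr7:140955988-140956081, minus strand, 120 to 27 bases before the start: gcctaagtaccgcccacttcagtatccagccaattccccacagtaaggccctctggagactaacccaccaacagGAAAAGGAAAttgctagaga
Ifitm3, chr7:141010771-141010864, minus strand, 120 to 27 bases before the start: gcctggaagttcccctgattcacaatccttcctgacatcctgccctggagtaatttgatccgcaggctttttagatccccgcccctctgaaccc
Ifitm3, chr7:141010715-141010744, minus strand, the first 30 transcribed bases: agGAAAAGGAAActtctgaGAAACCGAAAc
The Ifitm2 match begins 46 bases before the transcript start. The Ifitm3 window holds 2 matches, which begin at transcribed bases 3 and 20, and the same 10 letters as in Ifitm2 make up the first of them. Ifitm1 has no such GAAA repeat in its window, and its TGGGAA core begins 131 bases before the start. The window of the neighbour Ifitm5 holds neither motif, and that of Ifitm6 holds 2 TGGGAA cores. Of 32851 promoter windows, 3.44% hold the GAAA repeat and 25.6% hold TGGGAA. The matches are a description of letters, not of binding.

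Ifitm2 was the most abundant of the 3 genes per exonic length in every group. In CRISPR controls it stood at 93.6 ± 14.6 CPM per kb, against 0.517 ± 0.824 for Ifitm3 and 0.206 ± 0.209 for Ifitm1 (SD, n = 6). In wild-type BioNICD the same levels were 1039 ± 26.2 for Ifitm2, 44.4 ± 0.135 for Ifitm3 and 23.0 ± 0.488 CPM per kb for Ifitm1 (SD, n = 2). The 3 genes had their highest levels in the wild-type BioNICD and 4-OHT samples, an intermediate level in NICD-ER cells with ethanol, and low levels in the DEP mutant and both CRISPR groups. Wild-type BioNICD was above 4-OHT for Ifitm1 and Ifitm3 and below it for Ifitm2, with no overlap of the libraries (n = 2 each). The share of all genes without overlap there is not given. At the low end, the ranges of the DEP mutant and the CRISPR controls overlapped for all 3 genes, and so did the ranges of the CRISPR controls and the guides.

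**Figure D1:**
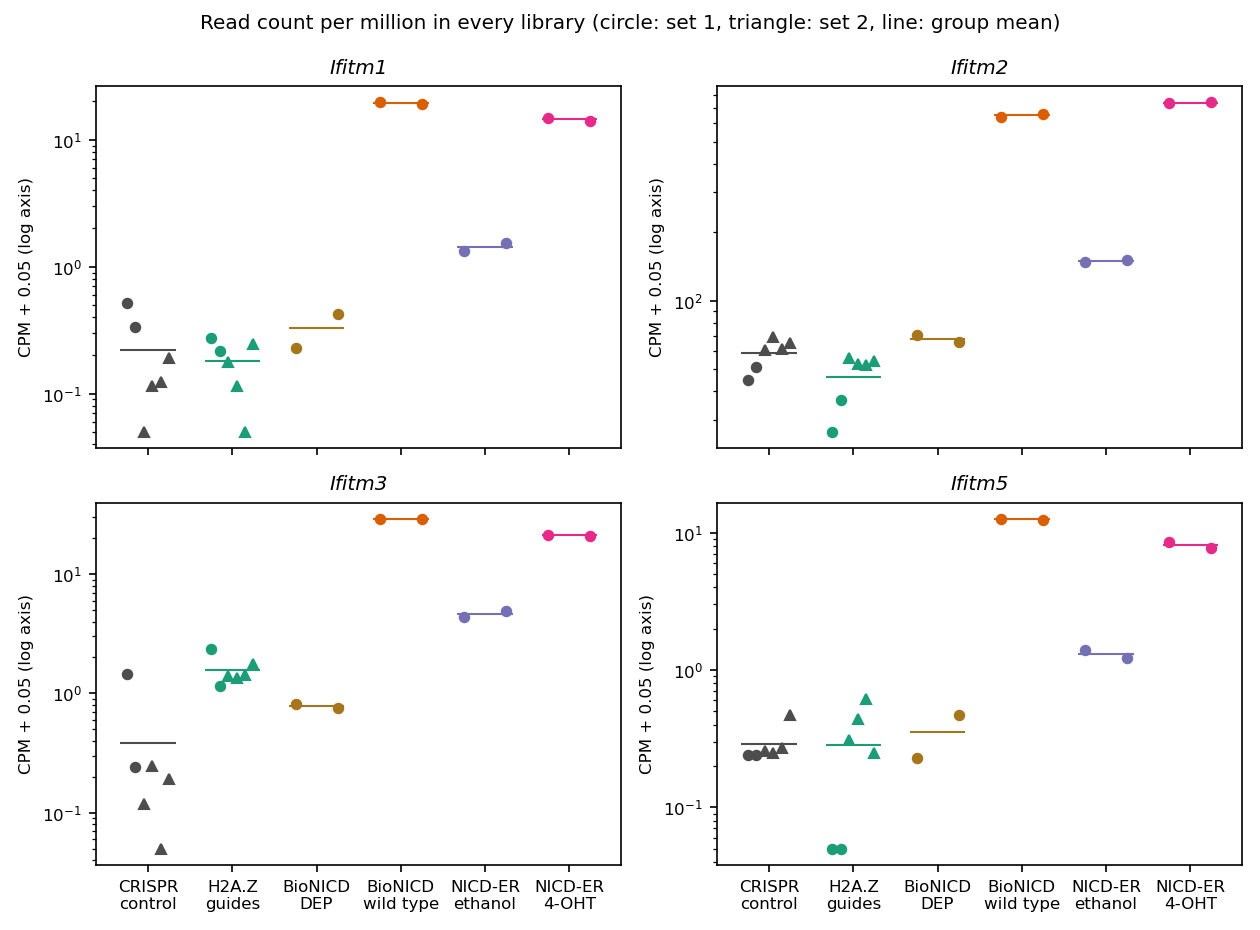
CPM of Ifitm1, Ifitm2, Ifitm3 and the neighbouring Ifitm5 in every library, on a log axis after adding 0.05 so that libraries with 0 counts can be drawn. Points are libraries (circles set 1, triangles set 2) and lines group means, for example 651 CPM of Ifitm2 in wild-type BioNICD against 68.2 CPM in the DEP mutant; the intermediate level of NICD-ER cells with ethanol is visible for all 4 genes.

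All 3 genes were far higher with wild-type NICD than with its DEP mutant. Ifitm2 stood at 639.6 and 663 CPM in the wild-type libraries and at 70.3 and 66.1 CPM in the mutant libraries. Ifitm1 stood at 19.6 and 19.0 CPM with the wild type and at 0.178 and 0.376 CPM with the mutant. Ifitm3 stood at 28.7 and 28.8 CPM with the wild type and at 0.772 and 0.705 CPM with the mutant. Every wild-type library lay above both mutant libraries, by far more than replicates differed. The share of all genes without overlap in this comparison is not given. The log2 difference of Ifitm2 was 3.25 (SE 0.0432, adjusted p = 1.76e-25 by edgeR's quasi-likelihood test), a 9.50-fold rise. The log2 difference of Ifitm1 was 6.04 (SE 0.204, adjusted p = 1.2e-17) and that of Ifitm3 5.27 (SE 0.147, adjusted p = 2.63e-19) in the same edgeR fit. The mutant libraries together held 11 Ifitm1 and 28 Ifitm3 counts, and without DEP mutant replicate 2 the log2 difference of Ifitm1 was 6.72. The pooled ratio was 67.2 for Ifitm1 (exact 95% interval 37.5 to 135.0) and 39.1 for Ifitm3 (27.0 to 59.0), where the intervals cover counting error only. All 3 genes rose, where 32.0% of the 12499 genes tested rose, 33.6% fell and 65.6% were called in either direction. Their ranks from the top were 269 for Ifitm1, 318 for Ifitm3 and 547 for Ifitm2. The Blk, Pdgfrb and Itgam levels given above moved with this comparison, and their part in the result was not tested.

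Against the CRISPR controls, which carry no NICD, the same wild-type samples were also higher in all 3 genes, where 32.2% of 11988 genes tested were higher, 30.0% lower and 62.1% called in either direction. The edgeR log2 differences were 5.96 for Ifitm1 (SE 0.266, adjusted p = 3.96e-14), 3.88 for Ifitm2 (SE 0.0964, adjusted p = 1.85e-18) and 6.17 for Ifitm3 (SE 0.331, adjusted p = 9.03e-13). The DEP mutant samples, set against the same controls, were higher in Ifitm2 by 0.62 (SE 0.102, adjusted p = 6.09e-05 by edgeR), with 20.7% of genes higher, 20.6% lower and 41.3% called in either direction. For Ifitm1 the DEP difference was -0.08 (SE 0.597, adjusted p = 0.938), and for Ifitm3 it was 0.90 (SE 0.646, adjusted p = 0.283), both short of the threshold in edgeR. The Ifitm3 values rest on control replicate 1. In set 1 alone the Ifitm3 difference was 5.17 for the wild type and -0.13 for the DEP mutant (adjusted p = 0.894, edgeR). Without control replicate 1 the edgeR log2 difference was 7.68 for the wild type and 2.40 for the DEP mutant (adjusted p = 0.00183). Without both libraries that held fibroblast markers these differences were 8.10 and 2.82 (adjusted p = 0.000145 for the latter, edgeR). The Ifitm2 difference of the DEP mutant was 0.51 without these 2 libraries. Construct, selection and line differ together between these groups and cannot be told apart.

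With 4-OHT, which brings NICD-ER into the nucleus, the 3 genes stood higher than with ethanol. Ifitm2, the gene behind the choice, was at 740.3 and 742 CPM with 4-OHT and at 148 and 151 CPM with ethanol, 4.99-fold apart. Ifitm1 was at 14.9 and 14.0 CPM with 4-OHT and at 1.29 and 1.48 CPM with ethanol, 10.4-fold apart, the widest ratio of the 3. Ifitm3 was at 21.0 CPM in both 4-OHT libraries and at 4.35 and 4.82 CPM with ethanol, 4.60-fold apart. The groups of 2 libraries did not overlap for any of the 3, and the share of all genes without overlap is not given. In this comparison 19.0% of 12499 genes were called higher, 17.2% lower and 36.2% in either direction. Ethanol libraries already stood above every CRISPR and DEP mutant library in all 3 genes, although they received no 4-OHT. For Ifitm2, the mean was 149.4 ± 2.13 CPM with ethanol, against 68.2 ± 2.999 CPM in the DEP mutant (SD, n = 2 each) and 58.7 ± 9.13 CPM in CRISPR controls (SD, n = 6). That difference between lines was not tested, and the share of all genes ordered this way is not given.

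With guides against H2A.Z the 3 genes did not move together. Ifitm2 was a little lower, Ifitm3 was higher at a very low level, and Ifitm1 was near the limit of detection in both groups. Ifitm2 ranged from 44.7 to 69.5 CPM in the controls (median 60.9) and from 26.5 to 56.1 CPM with the guides (median 52.4), so the groups overlapped. Within a set they did not: in set 1 the controls were at 44.7 and 51.3 CPM and the guides at 26.5 and 36.5 CPM. In set 2 the controls ran from 60.7 to 69.5 CPM and the guides from 52.1 to 56.1 CPM. The share of all genes without overlap within a set is not given. In edgeR, Ifitm2 fell by 0.37 on the log2 scale (SE 0.0792, adjusted p = 0.000741), where 32.7% of 10662 genes tested fell, 31.8% rose and 64.5% were called in either direction. The change was -0.60 in set 1 alone (adjusted p = 0.0435) and -0.25 in set 2 alone, and it missed the edgeR threshold without the set as a covariate (-0.35, adjusted p = 0.0906). The difference of the effect between sets was 0.33 (SE 0.146, adjusted p = 0.138, edgeR), with 15.7% of genes called in that test, 8.19% higher and 7.49% lower. Without guide replicate 2 this difference was 0.60. The only guide library of set 1 was then guide replicate 1, which held fibroblast markers.

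Ifitm3 in the controls ranged from 0 to 1.41 CPM with a median of 0.165, and with the guides from 1.11 to 2.32 CPM with a median of 1.36. The counts behind these levels were 15, 2, 1, 3, 0 and 2 in control replicates 1 to 6, and 31, 20, 21, 20, 17 and 26 in guide replicates 1 to 6. Control replicate 1 is the single control that reached into the range of the guides. The edgeR log2 difference was 2.29. Ifitm3 passed the filter on low counts through the guide libraries, so that a difference was built into its being tested, and its values with the guides are given as a description without a p-value. Control replicate 1 and guide replicate 1 are the libraries with collagen and other fibroblast markers, and they have the highest Ifitm3 level of their groups. Without both the log2 difference was 3.46, and without control replicate 1 alone it was 3.54. In set 2, where these markers were at or near 0, Ifitm3 held 84 counts with guides and 6 in controls. The pooled ratio was 13.7, and the log2 difference was 3.67. In set 1 alone it was 1.06. The difference between sets was 2.64, and 1.16 without the 2 libraries, also as a description without a p-value. Left out singly, control replicate 1 brought it to 0.60, control replicate 2 to 3.45 and guide replicate 1 to 3.19. Each of these fits left 1 library of that group in set 1. Ifitm1 held 12 counts in each group and was under the filter. Its pooled ratio of guides over controls was 0.506 in set 1 (exact 95% interval 0.145 to 1.66) and 1.47 in set 2 (0.349 to 7.1), so no difference was detectable at this depth.

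The mix of family transcripts was followed per library. Of the counts of Ifitm2 and Ifitm3 together, Ifitm3 made up 0 to 0.369% in control replicates 2 to 6 and 2.34% to 3.04% in guide replicates 2 to 6. Ifitm3 passed the filter on low counts through the guide libraries, so these shares are a description and not a test. Exact 95% intervals, given in brackets, cover counting error only, not the spread between libraries. The share was 3.07% in control replicate 1 (1.73% to 5.01%) and 8.05% in guide replicate 1 (5.54% to 11.2%). In the NICD lines it was 4.29% and 4.17% with wild-type BioNICD, 1.09% and 1.06% with the DEP mutant, 2.86% and 3.09% with ethanol, and 2.76% and 2.75% with 4-OHT. The intervals of the ethanol and 4-OHT libraries overlapped. The Ifitm1 count was 0.871% and 0.982% of the Ifitm2 count with ethanol and 2.01% and 1.88% with 4-OHT.

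**Figure D2:**
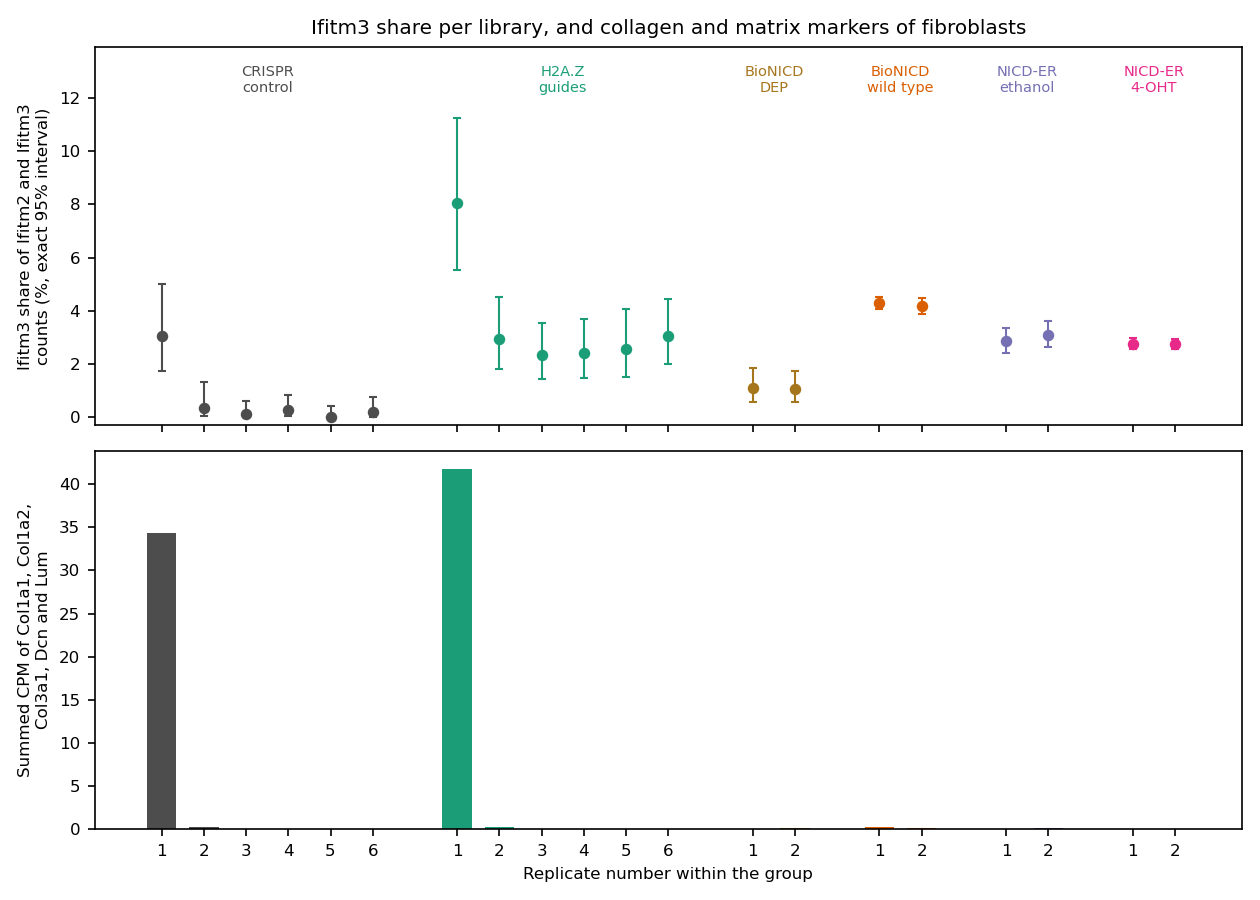
Upper panel: Ifitm3 as a percentage of the Ifitm2 and Ifitm3 counts in each of the 20 libraries, with exact 95% binomial intervals for counting error only. Lower panel: summed CPM of 5 fibroblast markers in the same libraries, which reached 34.3 in control replicate 1 and 41.8 in guide replicate 1 and at most 0.285 in the others.

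Neighbours of the family on chromosome 7 were examined next. The window of 100 kb around the 3 genes holds 17 annotated genes, of which 14 are not among them. Ifitm5 lies 5.72 kb from the Ifitm2 start and was high in the same groups. It stood at 12.5 and 12.4 CPM with wild-type BioNICD against 0.178 and 0.423 CPM with the DEP mutant, an edgeR log2 difference of 5.28 (SE 0.231, adjusted p = 1.99e-15). With 4-OHT it stood at 8.48 and 7.70 CPM against 1.35 and 1.17 CPM with ethanol, a log2 difference of 2.68. Ifitm6, on the far side of Ifitm3, held 5 counts over all 20 libraries, each of them in a 4-OHT library. Nlrp6, which encodes an innate immune sensor, had 251 counts with wild-type BioNICD and 0 with the DEP mutant, at least 43.2-fold higher when the mutant group as a whole is set to 3 counts. Athl1, which encodes a glycosidase, was higher by 2.11 on the log2 scale, B4galnt4, a glycosyltransferase gene, by 3.56, and Pkp3, which encodes the junction protein plakophilin-3, by 2.95. Differences were smaller for Sigirr (0.79), which encodes an inhibitory receptor of the interleukin-1 receptor family, and for the proteasome subunit gene Psmd13 (0.12). B4galnt4 and Pkp3, whose starts lie 105.3 and 122.3 kb from that of Ifitm2, had larger differences than the nearer Athl1. Of the 10 neighbours tested, 9 rose between wild-type BioNICD and the DEP mutant, with a median log2 difference of 1.45, where 32.0% of all genes rose. With 4-OHT, 7 rose and 1 fell, where 19.0% of all genes rose and 17.2% fell, with a median of 0.32, and Nlrp6 was higher by 3.34 (SE 0.376, adjusted p = 2.36e-07, edgeR). With the H2A.Z guides, 8 were tested, 3 rose and 4 fell, near the 31.8% and 32.7% of all genes. Among them B4galnt4 rose by 0.87 and Athl1 by 0.53, and Pkp3 fell by 3.53 (SE 0.243, adjusted p = 3.33e-09, edgeR). The Ifitm5 value rests on 12 counts in the mutant: without DEP mutant replicate 2 the wild-type difference of Ifitm5 was 6.09.

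**Figure D3:**
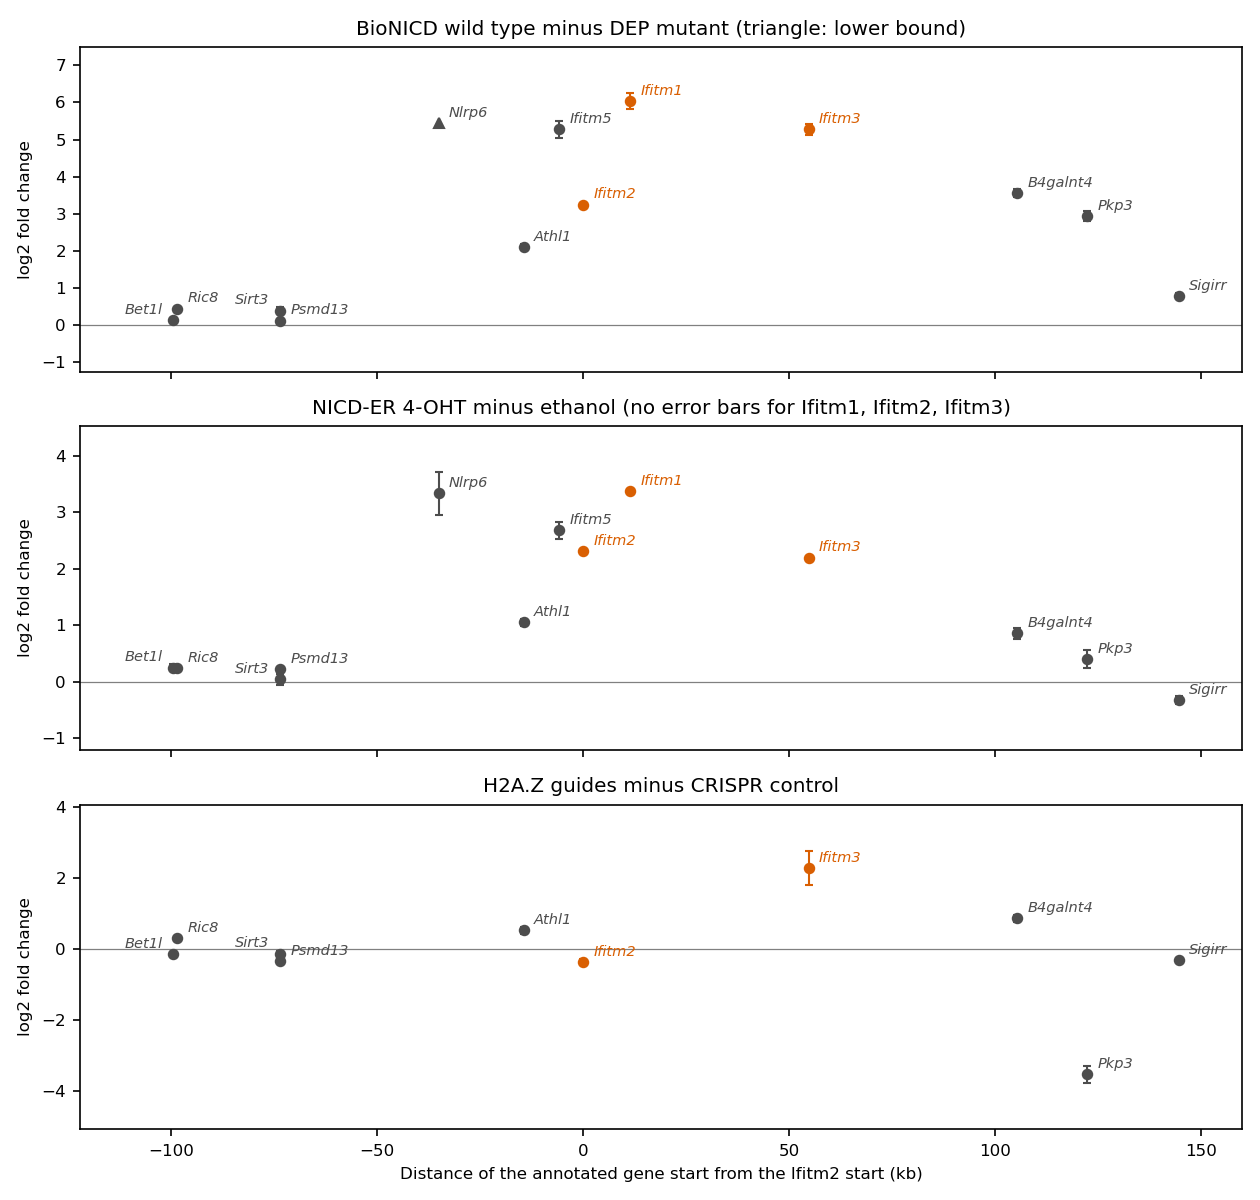
EdgeR log2 fold change (points) with its SE (bars) for the genes tested within 100 kb of the family, against the distance of each gene start from the Ifitm2 start in kb, in 3 comparisons. The 3 IFITM genes are orange and carry no error bar in the 4-OHT panel; the triangle for Nlrp6 is a lower bound. In the upper panel the values run from 6.04 for Ifitm1 to 0.12 for Psmd13.

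Other genes of the interferon response were counted from lists. Of 41 interferon-stimulated antiviral genes, 40 were tested between wild-type BioNICD and the DEP mutant, and 39 rose and 1 fell, with a median log2 difference of 2.47, against -0.02 over all genes, of which 32.0% rose and 33.6% fell. Gbp2, which encodes a guanylate-binding protein, was higher by 7.62 and Rtp4 by 7.61. Ifi44 and the oligoadenylate synthetase gene Oas1a had 2 counts each in the mutant. Their pooled ratios were 559.2 (exact 95% interval 154.6 to 4620) for Ifi44 and 125.9 (34.7 to 1042) for Oas1a, for counting error only. Of the 40, with Ifi44 and Oas1a at their fitted values, 4 had a larger difference than Ifitm1, 6 a larger one than Ifitm3 and 16 a larger one than Ifitm2. Among 17 interferon receptor and signalling genes tested, 12 rose and 4 fell. The transcription factor genes Irf1 (2.93), Irf7 (2.65) and Irf9 (2.51) were among those that rose. The receptor subunit gene Ifngr2 was lower by 1.17.

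With 4-OHT, 23 of the 40 antiviral genes rose and 3 fell, with a median of 0.39, against 0.00 over all genes, of which 19.0% rose and 17.2% fell. Isg15, which encodes a ubiquitin-like modifier, was higher by 2.22, Rtp4 by 1.81 and Oas2 by 1.58, and Usp18, which encodes the protease that removes ISG15, was lower by 1.08. None of the 40 had a larger value than Ifitm1 (3.38) or Ifitm2 (2.32), and 1 had a larger value than Ifitm3 (2.20). Of the 17 signalling genes 6 rose and 5 fell, with a median of 0.00. The 3 IFITM genes were chosen on this comparison, so their place in that order is part of the choice.

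With the H2A.Z guides, 31 antiviral genes were tested, 22 rose and 3 fell, with a median of 0.62, against -0.01 over all genes, of which 31.8% rose and 32.7% fell. Gbp2 rose by 4.11, Parp14 by 3.11 and Ifih1, which encodes the RNA sensor MDA5, by 2.48, while Ifi27l2a fell by 2.53 (all edgeR adjusted p under the threshold). Without both libraries that held fibroblast markers, 23 rose and 3 fell, with a median of 0.65. Of the 31, 3 had a larger value than Ifitm3 and 28 a larger one than Ifitm2. Among 17 signalling genes, 10 rose and 3 fell. The suppressor gene Socs1 rose by 1.80, Irf1 by 0.87 and the receptor gene Ifngr1 by 0.84.

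In the DEP mutant against the CRISPR controls, 13 of 40 antiviral genes were higher and 3 lower, with a median of 0.33, beside 20.7% and 20.6% of all genes. The wild type against the same controls had 40 of 40 higher, with a median of 3.07, beside 32.2% of all genes. A list of genes for proteins that bind or modify IFITM proteins was counted too. Of 14 tested, 4 rose and 5 fell between wild type and DEP mutant, with a median of 0.06, near the 32.0% and 33.6% of all genes. Fyn, which encodes a kinase of IFITM3, was higher by 1.27 and the tetraspanin gene Cd81 by 0.86, whereas Nedd4, which encodes a ubiquitin ligase of IFITM3, fell by 0.48. With the guides 3 rose and 6 fell, beside 31.8% and 32.7% of all genes, and Cd81 was higher by 1.73. With 4-OHT 5 rose and 4 fell, beside 19.0% and 17.2% of all genes, and Fyn was higher by 0.59. Of 8 Notch activity genes tested, 5 rose and 3 fell between wild type and DEP mutant (median 6.31, or 4.16 with the 1 gene at 0 counts in the mutant set to 3 counts), and 5 rose and 2 fell with 4-OHT (median 1.86). With the guides only 4 of the 10 listed genes were tested, and 3 rose and 0 fell (median 0.48). Of all genes, 32.0% rose and 33.6% fell between wild type and DEP mutant, 19.0% and 17.2% with 4-OHT and 31.8% and 32.7% with the guides.

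**Figure D4:**
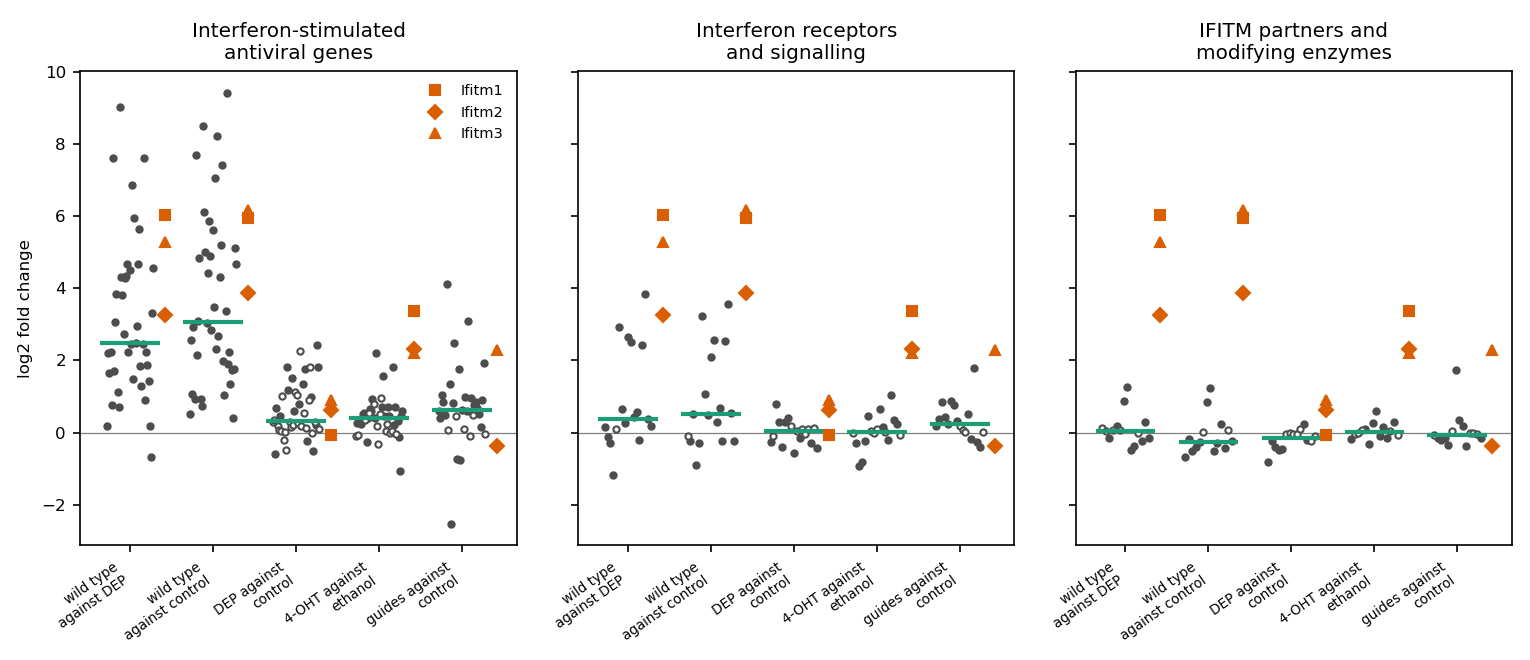
EdgeR log2 fold change of the genes of 3 lists (filled points, adjusted p under 0.05; open points, not) with the list median (green line) in 5 comparisons, beside the 3 IFITM genes (orange). Of the antiviral genes, none reached the 3.38 of Ifitm1 with 4-OHT, the comparison on which the 3 IFITM genes were chosen. Between wild-type BioNICD and the DEP mutant, 4 exceeded the 6.04 of Ifitm1. Comparisons that share samples are drawn side by side.

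Patterns over the 20 libraries were compared with those of 11988 genes as Pearson correlations of log2 CPM (prior count 2). These are a description, because all points share the same libraries and scaling and fall into groups of high and low level. Ifitm2 was most like Rasal1 (0.976), Abcb1b (0.976), Ifitm5 (0.973), Ankmy2 (0.972) and Ttc39b (0.971). Ifitm1 was most like Neb (0.966), Sec14l2 (0.966), Clip4 (0.964), Traf3ip2 (0.963) and Ttc39b (0.962). Ifitm3 was most like Id2 (0.967), Aim1 (0.965), Havcr2 (0.960), Mical1 (0.952) and Gatsl3 (0.948). Among themselves, Ifitm1 and Ifitm2 stood at 0.934, Ifitm1 and Ifitm3 at 0.880 and Ifitm2 and Ifitm3 at 0.787. Ifitm3 was rank 544 in likeness to Ifitm2, whereas Ifitm5 was the third.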

How the data were processed

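Stranded libraries were made from total RNA after removal of ribosomal RNA, per the labels' protocols. STAR, DESeq2, Trimmomatic, FastQC and featureCounts are listed in the submitters' processing notes, with the build mm9, and no settings but the counting command were found. Reads were counted by the authors per gene, over exons and per the file headers, with featureCounts 1.5.0 on a UCSC mm9 annotation, with no strand option, so reads of overlapping antisense genes cannot be told apart. The deposited values are raw read counts of 24391 genes, used as deposited.

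Counts were tested with edgeR 4.0.16 in R 4.3.3 (TMM, filterByExpr, quasi-likelihood test, Benjamini-Hochberg adjustment over all genes tested). The guide comparison used the 12 CRISPR libraries with set as a covariate, and the BioNICD and 4-OHT comparisons a model of 8 NICD libraries. Comparisons with CRISPR controls used a model of all 20 with set as a covariate. The 8 NICD libraries were placed in set 1 there. These differences therefore rest on the controls of set 1 and on a set shift estimated from the CRISPR libraries. The SE of a log2 difference is its size divided by the square root of F and can be too small at few counts. The scripts were tested on simulated counts. Named genes are the 3 family members, CD225 relatives with at least 10 counts, genes within 100 kb, at most 4 called genes per list and comparison, both targeted genes and the 5 most similar genes per member. The members and the 13 lists were chosen with earlier results of these data known, so no pattern over a list is independent support. Alternatives included upper quartile and RLE scaling, DESeq2 1.42.0, no filter, other sample choices and leaving out each library. Leaving out the 2 libraries with fibroblast markers (above 10 CPM) was chosen after seeing the data. Sequences and promoter windows are from RefSeq on GRCm38.p6 and transcripts from GENCODE M21 on the same build; gene coordinates of the counts are mm9. Replicate pairs differed by more than sampling noise (mean chi-square per gene 2.68 to 95.0), so none was merged. In set 2, guide replicates 3 and 4 differed by 2.78 and 5 and 6 by 3.37, but 41.0 to 57.7 across these pairs. Rn45s made up 6.73% to 7.67% of counts in guide replicates 5 and 6 and control replicate 6. It was at most 3.06% in the other libraries of set 2, and the set covariate does not cover this difference. Some members of the lists are not reported here by name.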

Additional observations from a re-analysis of the deposited data

Results flagged for a closer look

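Of the 31 groups of 6 libraries examined for the family and its neighbours, 7 had 1 library far from the others; chance does so in about 1 group in 20 of continuous values, a rate that does not apply to groups at 0 or a few counts. Ifitm3 stood at 1.41 CPM in CRISPR control replicate 1, against 0 to 0.197 CPM in the other controls. That library also held 34.3 CPM of 5 fibroblast markers, whose part in the value was not tested. Ifitm5 stood at 0.422 CPM in control replicate 6, against 0.189 to 0.22 CPM in the others. Ric8, which encodes a chaperone of G proteins, stood at 113 CPM in guide replicate 1, against 87.4 to 97 CPM in the other guide libraries. At a few counts each, Cox8b reached 0.0656 CPM and BC024386 0.394 CPM in control replicate 4, Nlrp6 0.138 CPM in control replicate 3 and Ano9 0.22 CPM in control replicate 5.

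The effect of the H2A.Z guides differed between set 2 and set 1 in 11 named genes given here (edgeR interaction test, adjusted over 10662 genes). They come from the targeted genes, the family, its neighbours and the lists of partners, antiviral genes and interferon signalling. Of all genes, 15.7% were called in this test, 8.19% higher and 7.49% lower. At most 4 called genes were named per list, so 11 is not a count over the lists. Of 31 antiviral genes tested, 3 were called higher and 4 lower, of 14 partners 3 and 0, and of 17 signalling genes 0 and 2. The targeted gene H2afv differed by -0.63 (-1.46 in set 1, -2.08 in set 2, adjusted p = 0.00374). Of the partners, Cd81 differed by 0.54 (1.40 and 1.94, adjusted p = 0.0105), Fyn by 0.45 (0.05 and 0.51, adjusted p = 0.0023) and the protease gene Zmpste24 by 0.31 (-0.37 and -0.05, adjusted p = 0.0293). Of the antiviral genes, Parp14 differed by -2.06 (4.95 and 2.90, adjusted p = 0.0307), Rsad2 by -2.06 (2.21 and 0.14, adjusted p = 0.00863), Usp18 by -1.77 (2.33 and 0.56, adjusted p = 7.42e-05) and Ifit2 by 1.00 (-1.52 and -0.52, adjusted p = 0.0331). The signalling genes Irf1 and Ifnar2 differed by -0.39 (1.13 and 0.75, adjusted p = 0.0444) and -0.29 (0.56 and 0.28, adjusted p = 0.0145). For Prrt2, a CD225 family gene known for its role at synapses, the difference was -1.19, with 0.22 in set 1 and -0.95 in set 2 (adjusted p = 0.00113).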

How the results depend on the processing

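Of the alternative values of the 3 IFITM genes outside the 4-OHT comparison, 188 kept their direction and their side of the threshold, 7 crossed the threshold and 4 changed sign. These include Ifitm3 with the guides, also in the difference between sets, where it was tested only because the guide libraries passed the filter. For Ifitm3 there, the tally is no support. The number of genes called stayed within 1.5 times in 83 alternatives and not in 5. With set 1 alone the guide comparison called 2948 genes and Ifitm3 stood at 1.06; without the set covariate Ifitm2 stood at -0.35. Prrt2, at -0.56 over the 12 libraries, was 0.22 in set 1 alone. The DEP mutant difference of Ifitm1 was 0.48 and of Ifitm3 2.82 without both libraries with fibroblast markers, and that of Ifitm3 was -0.13 in set 1 alone. With upper quartile scaling the 4-OHT difference of Ifitm2 was 2.29. The set difference called 447 genes without the 3 libraries highest in Rn45s. The cause of these changes was not tested, except that fewer libraries entered.

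Leaving out each library in turn gave 6582 to 7397 genes called with the guides, with Ifitm2 at -0.40 to -0.28 and Ifitm3 at 2.06 to 3.54. The wild type against the DEP mutant gave 7236 to 7807 genes, Ifitm1 5.66 to 6.72, Ifitm2 3.20 to 3.29, Ifitm3 5.20 to 5.33 and H2afz -0.18 to 0.057, the latter without wild-type replicate 1. Against the controls, Ifitm1 ran from 5.87 to 6.51 and Ifitm3 from 5.97 to 7.68 in the wild type. In the DEP mutant Ifitm1 ran from -0.75 to 0.47, Ifitm2 from 0.58 to 0.73 and Ifitm3 from 0.69 to 2.40. The set difference called 851 to 4062 genes, with Ifitm2 at 0.12 to 0.60 and Ifitm3 at 0.60 to 3.45; it called 851 without control replicate 1, 1037 without control replicate 2 and 4062 without guide replicate 2. Where a single library of a group was left, it was assumed to vary like the other groups.

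The replicate numbers do not pair the samples by the labels. Deviations of same-numbered control and guide libraries correlated at 0.38 in replicates 1 and 2 and at -0.01 to 0.07 in replicates 3 to 6. Those of the NICD groups correlated at -0.02 to 0.07. Where a group has 2 libraries in a set, both replicates give the same value by construction, so the 0.38 is 1 observation. Replicate 1 of both CRISPR groups also held the fibroblast markers. With the number as a replicate block, the guide comparison called 6412 genes, with Ifitm2 at -0.37 (adjusted p = 0.00164) by edgeR and Ifitm3 at 2.38 as a description, and no call of Ifitm1 or Ifitm2 changed in the comparisons tested. Depth limits Ifitm1 and Ifitm3 in both CRISPR groups and the DEP mutant, where single libraries held 0 to 31 counts.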

Other observations

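Other genes with a CD225 domain were examined beside the 3 described. Prrt2 was lower with wild-type BioNICD than with the DEP mutant, at 12.5 ± 0.382 against 28.5 ± 2.93 CPM (SD, n = 2 each; log2 difference -1.19, SE 0.106, adjusted p = 9.92e-10 by edgeR). It was also lower with 4-OHT than with ethanol (-0.45, SE 0.108, adjusted p = 0.00204, edgeR). Tmem91 stood at 0.672 ± 0.183 CPM with wild-type BioNICD and 0.508 ± 0.121 CPM with the DEP mutant (SD, n = 2 each), a difference that did not pass the test. Ifitm10 held 29 counts over all 20 libraries and Ifitm7 held 0.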
